A study of Mus musculus with 16 samples.

Results

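A set of 49 cell cycle and DNA replication genes, named by symbol, was followed through RNA-seq and ATAC-seq of monocytes from newborn mouse spleen. All 49 had a row among the 25562 genes of the count table, and all 49 passed the filter on low counts. They were divided by role into 17 genes of S phase, 23 genes of mitosis and 9 genes that govern G1. The study sorted splenic monocytes of 7-day-old wild-type C57BL/6 mice (C57BL/6J in the RNA protocol) by the amount of surface Nrp1 (neuropilin-1, a co-receptor of semaphorins and VEGF) into an Nrp1 high and an Nrp1 low fraction, and asked what sets the high fraction apart. RNA was measured in 3 libraries of each fraction, from 80000 cells each, and open chromatin in 5 libraries of each fraction, from 50000 cells each. The labels name the cells myeloid-derived suppressor cells, whereas the protocol speaks of monocytes and of pooled RNA. No genotype, treatment or age separated the groups. The sources used here give neither the further markers of the sort nor whether each library had animals of its own.

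A dividing cell passes from G1, where D-type cyclins and their kinases release E2F factors from the retinoblastoma protein, into S phase, where the genome is copied, and then through G2 into mitosis. E2F factors switch on the genes for replication, and a later wave of transcription, driven by MuvB, B-Myb and FoxM1 complexes through the CHR element and CCAAT boxes, switches on the genes for mitosis. Mature blood monocytes are mostly out of cycle, while their precursors divide. The newborn spleen still makes blood cells, so that dividing myeloid cells can be found in it.

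Total counts of the 6 RNA libraries lay between 23395363 and 35127433. Levels are given in CPM (counts scaled to a common library size with TMM factors), always in the order low 1, low 2, low 3 and high 1, high 2, high 3, and CPM compares libraries rather than genes, since it is not divided by transcript length. Nrp1 itself stood at 20.1, 57.8 and 41.5 CPM in the low libraries and at 97.3, 89.8 and 111 CPM in the high libraries. Its log2 fold change was 1.32, with an adjusted p of 0.259 by edgeR, so that the sorted gene itself was not called. Low 1 was its lowest library and high 3 its highest. Of 9 monocyte markers none was at 0 in any library, and their summed level was 3592 to 4342 CPM in low and 4352 to 4963 CPM in high. Within it the values went both ways, with Cd14 at -1.33, Ccr2 at 0.81 and F13a1 at 0.77 on the log2 fold change scale and 0 of the 9 called. The 13 markers of neutrophil precursors and granules summed to 52703 to 85279 CPM in the low libraries and to 9440 to 12151 CPM in the high libraries, and 12 of the 13 were called lower in Nrp1 high by edgeR's quasi-likelihood test. All 5 mature neutrophil markers (1 called) and all 6 megakaryocyte markers (3 called) were below 0 on the log2 fold change scale. The 12 erythroid markers summed to 3555 to 6498 CPM in low and 3531 to 4227 CPM in high, and the 5 early progenitor markers to 54.7 to 95.2 and 38.4 to 59.6 CPM, with 0 called in either list. The low fraction thus carried far more granule transcript than the high fraction, none of these 13 genes was at 0 in the high libraries, and the part of these differences in the cell cycle values below was not tested. In such bulk samples fewer cells of a type and less RNA per cell cannot be told apart.

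No member was called different between the fractions. By edgeR, 0 of the 49 passed an adjusted p of 0.05 in either direction, against 0.682% of the 15541 genes tested (0.00643% higher and 0.676% lower in Nrp1 high). At an unadjusted p under 0.05 there were 4 higher genes, Top2a, Bub1b, Kif11 and Cdkn1a, and 0 lower genes. These are 8.16% of the members against 4.5% of all genes on the higher side, and 0 against 6.72% on the lower side. Without high 2 the lower side held 5 members, and without low 3 or without high 3 the higher side held 2. DESeq2 called 2 members, Bub1b and Cdkn1a, both higher, where it called 2.59% of all genes, and limma-voom called 0 members against 0.772% of all genes. In 43 of the 49 genes the change was under 1.5-fold, and this held for 62.6% of all tested genes and for 71.3% of the 10273 genes whose mean level lay in the members' range. The median size of the log2 fold change was 0.23 in the members and 0.44 in all tested genes. The median standard error was 0.21 in the members and 0.38 in all tested genes. Mean levels of the members ran from 4.00 to 735 CPM with a median of 160 CPM, and no genes were matched to them by level.

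Split by role, the changes lay on both sides of 0. The median log2 fold change, Nrp1 high minus Nrp1 low, was -0.00 in S phase genes, with 8 of 17 above 0, and -0.04 in mitosis genes, with 11 of 23 above 0. It was 0.00 in G1 genes, with 5 of 9 above 0, and 0.01 over all tested genes. Scaling by library totals in place of TMM, which moved the median of all genes by 0.189, put 39 of the 49 members above 0 in place of 24 (14 in S phase, 17 in mitosis and 8 in G1). The middle of the 3 roles was alike, but the spread was not: S phase genes lay between -0.49 and 0.49, mitosis genes between -0.52 and 1.04, and G1 genes between -0.62 and 0.80. The median standard error (SE) was 0.21 in S phase, 0.21 in mitosis and 0.26 in G1, against 0.38 over all tested genes. The plot of fold changes shows these values for every gene.

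**Figure D1:**
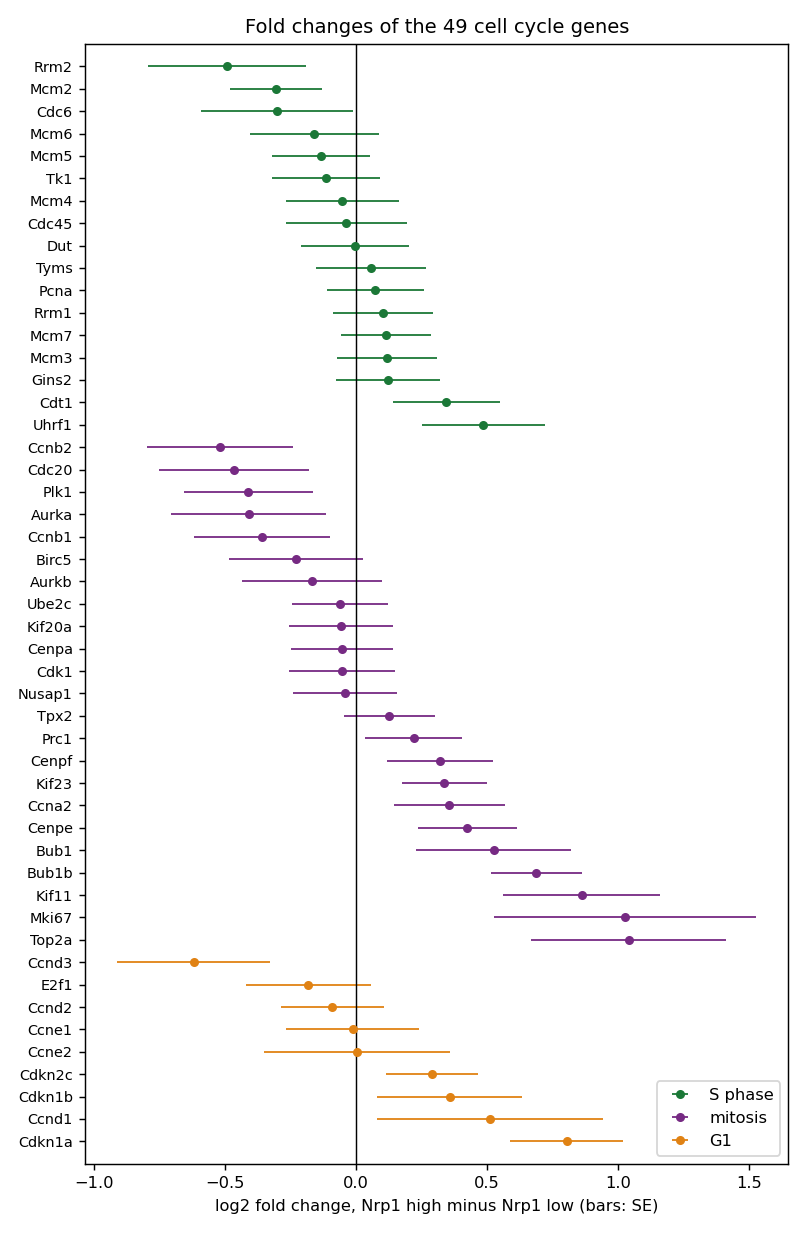
Log2 fold change, Nrp1 high minus Nrp1 low, of the 49 genes from edgeR (x axis; bars are SE; n = 3 libraries a fraction), one gene a row, coloured by role. S phase genes lie within -0.49 and 0.49, while Top2a (1.04), Mki67 (1.03), Kif11 (0.86), Cdkn1a (0.80) and Bub1b (0.69) extend to the right; 0 of the 49 passed an adjusted p of 0.05.

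Sums over the genes of a role overlapped between fractions. The S phase sum was 3570, 2820 and 3013 CPM in low and 2852, 3330 and 2967 CPM in high. The high values lie inside the range of the low ones, and the means were 3050 ± 249 and 3134 ± 389 CPM (SD, n = 3), a ratio of 0.973. The mitosis sum was 6184, 5706 and 5500 CPM in low and 6099, 6578 and 6421 CPM in high. Here the fractions overlapped only through low 1 and high 1, and the means were 6366 CPM in high and 5797 CPM in low, a ratio of 1.10. That excess was carried by 2 genes, Mki67 (means of 764 CPM in high and 375 CPM in low) and Top2a (707 and 344 CPM). Their differences together exceed it, so that the other mitosis genes had a lower mean sum in high than in low. Of the 23 mitosis genes, 12 had log2 fold changes below 0. The G1 sum was 1515, 1131 and 1242 CPM in low and 852, 1371 and 915 CPM in high, with high 1 and high 3 below the other 4 libraries. That order was carried by Ccnd3: the other 8 genes summed to 441, 395 and 380.0 CPM in low and 421, 549 and 430.1 CPM in high, a ratio of the means of 1.15 in place of 0.807.

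**Figure D2:**
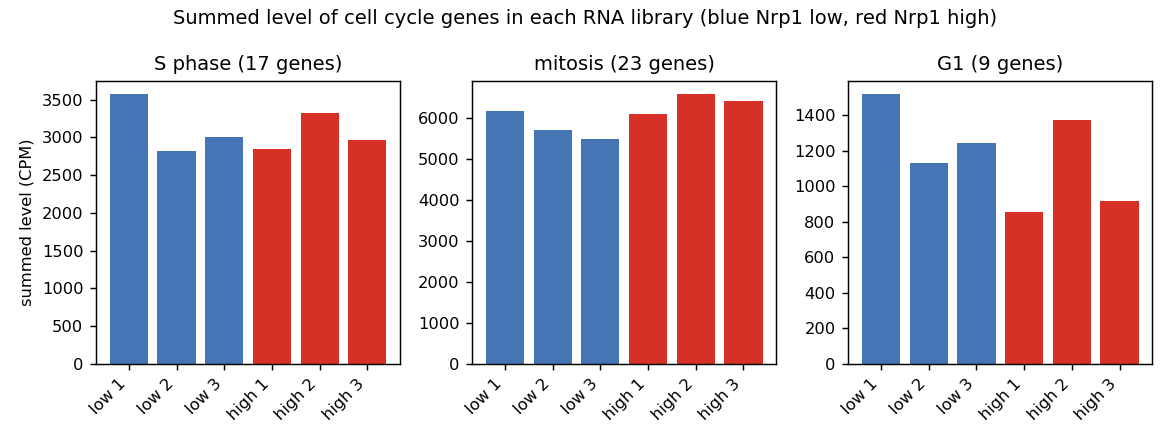
Summed level in CPM (y axis, from 0) of the S phase, mitosis and G1 genes in each of the 6 RNA libraries (x axis; blue Nrp1 low, red Nrp1 high; each bar is 1 library). The S phase sums of the high libraries (2852 to 3330) lie within those of the low libraries (2820 to 3570).

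The promoters of the members carry the letters of these pathways, and a few are printed because they stand for the groups described next. RefSeq promoter windows of 300 bases, 250 before and 50 after each start (GRCm38.p6), were found for 40 of the 49 genes and for 27025 genes in all. Both strands were searched for TTTGAA (the core of the CHR element), CCAAT (the CCAAT box), TTCCCGC and TTCGCGC (both E2F-like). A gene was counted once if any of its windows held a match, so that the shares are of genes. TTTGAA was present in 14 of 19 mitosis genes (73.7%), 2 of 15 S phase genes (13.3%) and 0 of 6 G1 genes, against 20.23% of all genes with a window. CCAAT was present in 17 of 19 (89.5%), 10 of 15 (66.7%) and 3 of 6 (50%), against 41.06%. The 14 mitosis genes with TTTGAA also held CCAAT, a pair found in 8.97% of all genes with a window, where the pair could lie in different windows. TTCCCGC ran the other way, with 6 of 15 S phase genes (40%), 0 of 19 mitosis genes and 1 of 6 G1 genes, against 5.29%. TTCGCGC was held by 4 S phase genes (26.7%: Mcm5, Mcm6, Mcm7 and Uhrf1) and by Cdk1 among the mitosis genes, against 1.81%. These are matches of letters and show no binding.

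Printed below are the 150 bases just before the start that the RefSeq promoter table gives, 5′ to 3′ on the gene's own strand, with each match in capitals. They are the mitosis genes Mki67 (chr7:135716380-135716529, minus strand), Top2a (chr11:99024190-99024339, minus strand), Kif11 (chr19:37376232-37376381, plus strand) and Cdc20 (chr4:118437344-118437493, minus strand), and, for contrast, the S phase gene Uhrf1 (chr17:56303187-56303336, plus strand). For Mki67 and Top2a this start lies inside the gene's outermost RefSeq span, so that 71 and 10 of the printed bases fall within it, and Uhrf1 has a second start in the table that is not printed. On the opposite strand TTTGAA reads TTCAAA and CCAAT reads ATTGG.
Mki67: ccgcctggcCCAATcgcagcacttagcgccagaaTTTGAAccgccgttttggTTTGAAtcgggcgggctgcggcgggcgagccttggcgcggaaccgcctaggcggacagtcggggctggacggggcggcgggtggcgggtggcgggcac
Top2a: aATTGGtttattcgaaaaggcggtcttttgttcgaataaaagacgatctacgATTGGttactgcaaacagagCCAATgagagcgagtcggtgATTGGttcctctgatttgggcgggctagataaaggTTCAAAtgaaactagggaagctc
Kif11: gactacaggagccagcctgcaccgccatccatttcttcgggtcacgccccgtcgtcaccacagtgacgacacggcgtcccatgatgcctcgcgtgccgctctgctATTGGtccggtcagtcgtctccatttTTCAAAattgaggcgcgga
Cdc20: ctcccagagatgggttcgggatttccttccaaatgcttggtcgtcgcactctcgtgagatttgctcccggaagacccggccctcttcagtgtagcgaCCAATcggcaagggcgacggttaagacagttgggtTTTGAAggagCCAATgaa
Uhrf1: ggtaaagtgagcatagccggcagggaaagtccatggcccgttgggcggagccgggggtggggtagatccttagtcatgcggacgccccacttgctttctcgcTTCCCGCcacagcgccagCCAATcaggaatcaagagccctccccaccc
Mki67, Top2a and Kif11 lay at the top of the fold changes and Cdc20 among the most negative mitosis genes, and all 4 hold both TTTGAA and CCAAT in these bases. Uhrf1 holds TTCCCGC and CCAAT there, and no TTTGAA.

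Among the S phase genes, those that build the replication machine had changes of at most 0.34 on the log2 scale in either direction. Mcm2 to Mcm7 encode the 6 subunits of the helicase loaded at origins. Mcm2 (chromosome 6, 88883474 to 88898780) was at 148, 126 and 129 CPM in low and 106, 117 and 102 CPM in high, so that every high library lay below every low one. Its log2 fold change was -0.31 ± 0.18 (SE), with an adjusted p of 0.47 by edgeR. It was the 1 gene of the 49 whose high libraries were all lower (2.04%), where 10.8% of all genes had that order. Mcm5 was at 347, 305 and 326 CPM in low and 252, 333 and 307 CPM in high (-0.14 ± 0.19, adjusted p = 0.732). The other helicase subunits had log2 fold changes of 0.12 (Mcm3), -0.05 (Mcm4), -0.16 (Mcm6) and 0.11 (Mcm7), so that 2 of the 6 subunits lay above 0 and 4 below, all but Mcm2 within 1 SE of 0.

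The 2 loading factors differed in sign. Cdc6, the ATPase that brings the helicase to the origin, was at 59.5, 36.9 and 36.7 CPM in low and 28.1, 46.1 and 33.9 CPM in high (-0.30 ± 0.29, adjusted p = 0.623). Low 1 was the highest library and high 1 the lowest, and without low 1 the log2 fold change was -0.03. Cdt1, its partner in loading, was at 76.8, 97.2 and 110.5 CPM in low and 127, 105 and 129.8 CPM in high (0.34 ± 0.21, adjusted p = 0.48), and here low 1 was the lowest library, with 0.21 without it. Cdc45 and Gins2, parts of the active helicase, were at -0.04 and 0.12. Pcna, the sliding clamp of the polymerases, was at 384, 293 and 340.2 CPM in low and 377, 357 and 335 CPM in high (0.07 ± 0.19, adjusted p = 0.858), with fully mixed libraries.

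The enzymes of nucleotide supply were likewise mixed between libraries. Rrm2, the cell-cycle-regulated subunit of ribonucleotide reductase, was at 569, 327 and 359 CPM in low and 216, 397 and 278 CPM in high (-0.49 ± 0.30, adjusted p = 0.485). Without low 1, its highest library, the log2 fold change of Rrm2 was -0.21. Its partner Rrm1 was at 0.10, thymidylate synthase Tyms at 0.06, thymidine kinase Tk1 at -0.11 and the dUTPase Dut at -0.00 on the log2 fold change scale. Uhrf1, which reads half-methylated DNA behind the fork and recruits the maintenance methyltransferase, was the S phase gene with the largest positive change. It was at 58.7, 95.9 and 96.1 CPM in low and 122, 105 and 124 CPM in high, with every high library above every low one (0.49 ± 0.23, adjusted p = 0.446), and without low 1, its lowest library, its log2 fold change was 0.28. Over the 17 S phase genes, adjusted p by edgeR ran from 0.446 to 0.995.

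The mitosis genes had fold changes of both signs, 11 above 0 and 12 below. Mki67 (chromosome 7, 135689784 to 135716450), the Ki-67 protein that coats mitotic chromosomes and serves as the common stain for cycling cells, was at 121, 622 and 382 CPM in low and 831, 618 and 844 CPM in high. Low 2 reached the level of high 2, and low 1 was far below all others, a 7-fold range over the 6 libraries. The log2 fold change of Mki67 was 1.03 ± 0.50 (SE, adjusted p = 0.446 by edgeR), and 0.61 without low 1. Top2a (chromosome 11, 98992947 to 99024199), the topoisomerase that untangles sister chromosomes, was at 171, 514 and 346 CPM in low and 774, 585 and 764 CPM in high. All 3 high libraries lay above all 3 low ones, and low 1 was again lowest. Its log2 fold change was 1.04 ± 0.37 (adjusted p = 0.397), and 0.72 without low 1.

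Kif11 and Bub1b showed the same order. Kif11 (chromosome 19, 37376382 to 37421863), the kinesin that pushes spindle poles apart, was at 67.9, 150.5 and 102 CPM in low and 159.5, 197 and 226 CPM in high (0.86 ± 0.30, adjusted p = 0.392). The fractions of Kif11 do not overlap, though low 2 and high 1 were close, and without low 1 the log2 fold change was 0.62. Bub1b (chromosome 2, 118598202 to 118641592), which encodes the checkpoint kinase BubR1 that delays anaphase, was at 83.4, 100.2 and 86.3 CPM in low and 144, 148 and 143 CPM in high. Its libraries were the most even of these 4 genes, with means of 90.0 ± 8.98 and 145 ± 2.24 CPM (SD, n = 3). The log2 fold change of Bub1b was 0.69 ± 0.17, with an adjusted p of 0.211 by edgeR and 0.0236 by DESeq2, and its adjusted p over the alternatives ran from 0.0236 to 0.748. Bub1, the related checkpoint kinase, was at 31.3, 64.3 and 36.2 CPM in low and 59.7, 59.2 and 71.0 CPM in high, where low 2 broke the order (0.53 ± 0.30, adjusted p = 0.465, and 0.33 without low 1).

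Cenpe, the kinetochore kinesin, was at 107, 134 and 99.2 CPM in low and 139.7, 158 and 159 CPM in high (0.43 ± 0.19, adjusted p = 0.445). Kif23, a kinesin of the central spindle that acts in cell division, was at 109, 113 and 104 CPM in low and 140.1, 136 and 136 CPM in high (0.34 ± 0.16, adjusted p = 0.446). In both genes every high library lay above every low one, by a small margin in Cenpe. Cenpf, another kinetochore protein, had the same order with a log2 fold change of 0.32, and 0.17 without low 1. Ccna2, the cyclin of S phase and early mitosis, was at 332, 418 and 361 CPM in low and 503, 374 and 546 CPM in high (0.36 ± 0.21, adjusted p = 0.48), with high 2 below low 2.

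Other mitosis genes had negative values, none past the threshold, and most of these values shrank without low 1. Ccnb2, a B-type cyclin that activates Cdk1, was at 646, 386 and 409 CPM in low and 262, 430.5 and 313 CPM in high (-0.52 ± 0.28, adjusted p = 0.462). Cdc20, which activates the anaphase-promoting complex, was at 512, 307 and 335 CPM in low and 231, 375 and 229.8 CPM in high (-0.47 ± 0.29, adjusted p = 0.489). In both, low 1 was the highest library and high 2 lay inside the low range. Without low 1 the log2 fold changes were -0.25 for Ccnb2 and -0.20 for Cdc20. Ccnb1 stood at -0.36, the mitotic kinases Plk1 and Aurka at -0.41 each, Aurkb at -0.17 and its partner Birc5 at -0.23 on the same scale. Without low 1 these became -0.15 for Ccnb1, -0.31 for Plk1, -0.11 for Aurka, 0.06 for Aurkb and -0.01 for Birc5, so that Aurkb changed sign. Cdk1 (-0.05), the centromeric histone Cenpa (-0.05), the ubiquitin-conjugating enzyme Ube2c (-0.06), the kinesin Kif20a (-0.06) and the spindle protein Nusap1 (-0.04) were close to 0, while the spindle factors Tpx2 and Prc1 were at 0.13 and 0.22. Over the 23 mitosis genes, adjusted p by edgeR ran from 0.211 to 0.926.

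Counted together, 9 of the 49 genes had every high library above every low one (18.4%, against 9.51% of all genes): Uhrf1, Top2a, Bub1b, Cenpe, Cenpf, Kif11, Kif23, Cdkn1a and Cdkn2c. With Mcm2 in the other direction, 39 of the 49 overlapped, where 20.3% of all genes did not overlap in either direction. The members were chosen with results of these libraries known, so that these shares describe these libraries only. The plot of 10 members by library shows the overlap of Mki67, the even levels of Bub1b and the position of low 1 at opposite ends of Top2a and Ccnb2.

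**Figure D3:**
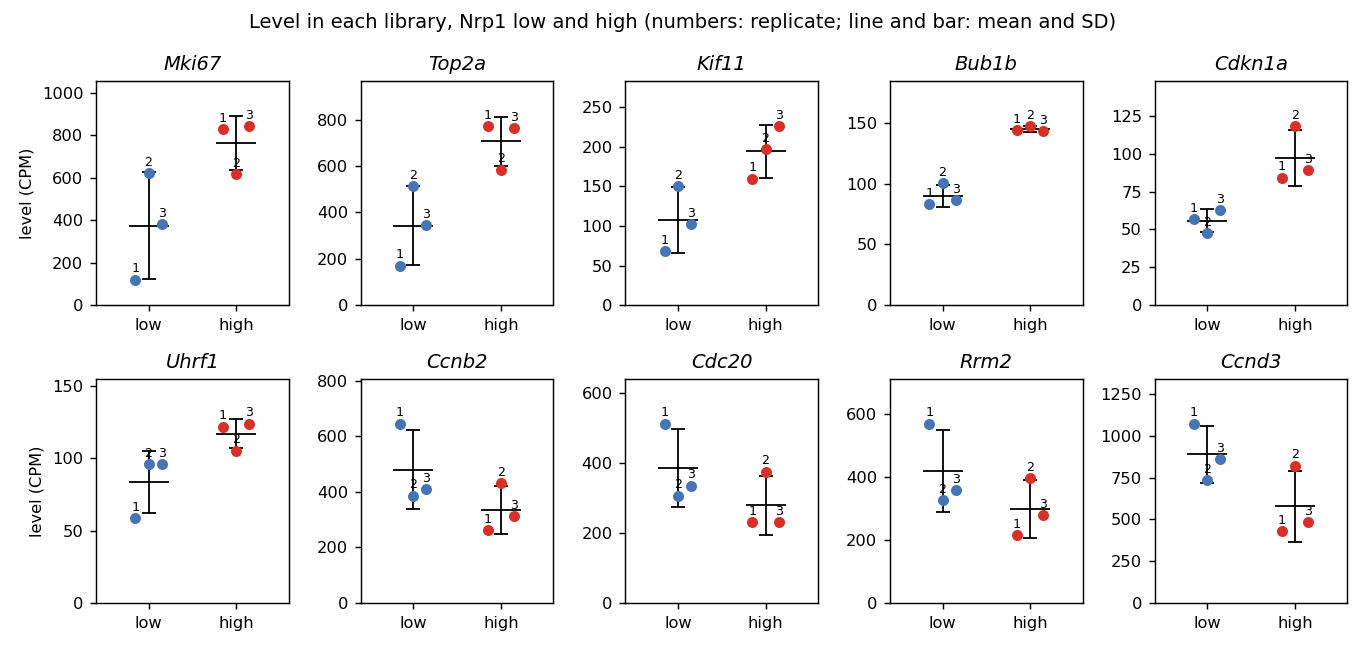
Level in CPM (y axis, from 0) of 10 members in the Nrp1 low (blue) and Nrp1 high (red) libraries; numbers are replicates, and the line and bar are mean and SD (n = 3). Library low 1 is the lowest for Mki67 (121), Top2a (171) and Kif11 (67.9), and the highest for Ccnb2 (646), Cdc20 (512), Rrm2 (569) and Ccnd3 (1074).

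The genes of G1 held the largest negative change and the second gene with a call by DESeq2. Cdkn1a (chromosome 17, 29090979 to 29100722), the p21 inhibitor of cyclin-dependent kinases and a classic target of p53, was at 56.9, 47.7 and 62.6 CPM in low and 84.3, 118 and 89.3 CPM in high. All high libraries lay above all low ones, and high 2 was the highest. The log2 fold change of Cdkn1a was 0.80 ± 0.22, with an adjusted p of 0.251 by edgeR and 0.0441 by DESeq2, a range of 0.0441 to 0.714 over the alternatives, and 0.82 without low 1. The other inhibitors had positive values below the threshold. Cdkn1b, which encodes p27, was at 13.2, 16.1 and 9.70 CPM in low and 18.4, 15.5 and 16.2 CPM in high (0.36 ± 0.28, adjusted p = 0.551). Cdkn2c, which encodes the Cdk4 and Cdk6 inhibitor p18, was at 115, 104 and 102 CPM in low and 132, 143 and 118 CPM in high (0.29 ± 0.18, adjusted p = 0.482).

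Of the 3 D-type cyclins, which carry growth signals to the cycle, Ccnd3 (chromosome 17, 47505051 to 47599689) was at 1074, 736 and 862 CPM in low and 431, 822 and 485 CPM in high. High 1 and high 3 were well below the rest while high 2 lay within the low range, and the log2 fold change was -0.62 ± 0.29 (adjusted p = 0.445 by edgeR). Ccnd3 overlaps Bysl in RefSeq, and with the strand of counting not given its reads are uncertain. Ccnd1 was at 1.94, 3.97 and 4.00 CPM in low and 3.60, 4.25 and 6.25 CPM in high (0.51 ± 0.43, adjusted p = 0.575, and 0.24 without low 1), and Ccnd2 was at -0.09 on the log2 fold change scale. The E-type cyclins, which act at the entry to S phase, were at -0.01 (Ccne1) and 0.00 (Ccne2), and E2f1, an activator of the replication genes, was at -0.18. In all, 18 of the 49 members overlap another RefSeq gene, Top2a, Kif11, Ccna2 and Cdc20 among them.

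Many of these orders had the same library at an end. Low 1 was the highest library in 26 of the 49 genes (53.1%), 11 of S phase, 13 of mitosis and 2 of G1, and it was the highest in 32.7% of all genes in the members' level range. It was the lowest in 11 members (22.4%), against 36% of those genes. Both ends occurred among the mitosis genes, with Ccnb2, Cdc20 and Aurka highest there and Mki67, Top2a and Kif11 lowest there. Low 1 was highest and high 1 lowest in 11 of the 49 members (22.4%), against 17.2% of all genes in the members' level range. These were Mcm5, Mcm6, Cdc6, Rrm2, Ccnb1, Ccnb2, Aurka, Aurkb, Plk1, Nusap1 and Ccnd3. Low 1 was lowest and high 1 or high 3 highest, a wider rule, in 9 of the 49 members (18.4%), against 27.4% of all genes in the members' level range. These were Cdt1, Gins2, Uhrf1, Mki67, Top2a, Ccna2, Bub1, Kif11 and Ccnd1.

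Leaving out low 1 moved the members above 0 from 24 to 36 of 49 (13 in S phase, 17 in mitosis and 6 in G1). The 9 mitochondrially encoded genes listed as a sign of RNA quality summed to 7383, 11021 and 9589 CPM in low and 18418, 8705 and 14408 CPM in high, with low 1 lowest and high 1 and high 3 highest, as for Mki67 and Top2a. The part of that difference in the values of Mki67 and Top2a was not tested. The heat map of all members shows the same contrast between low 1 and high 1 in both directions.

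**Figure D4:**
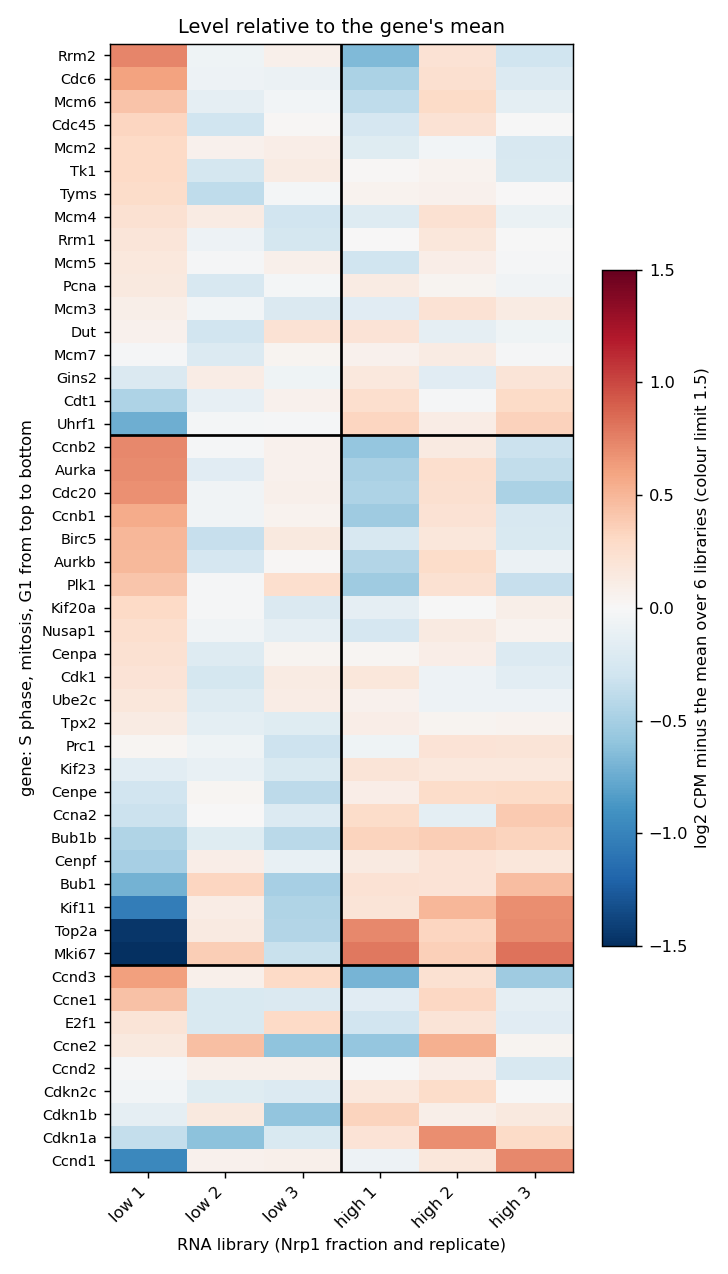
Level of each of the 49 genes (rows, grouped by role) in the 6 RNA libraries (columns), as log2 CPM minus the gene's mean over the 6 libraries; colours stop at 1.5 in either direction. Low 1 is the highest library in 26 genes and the lowest in 11, among them Mki67, Top2a and Kif11.

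A wider list of 121 other cell cycle genes, grouped by task, gave a like result. Of these, 120 had a row and 119 were tested, since Cdkn2b was at 0 in 5 of the 6 libraries, and edgeR called 0 of the 119 against 0.682% of all genes. At an unadjusted p under 0.05, 14 were higher (11.8%, against 4.5%) and 4 were lower (3.36%, against 6.72%). The 14 became 3 without high 1, 4 without high 3, 7 without low 3 and 28 without low 2, and the 4 became 11 without high 2. DESeq2 called 2, Clspn (adjusted p = 0.0199) and Cdc25a (adjusted p = 0.0219), where it called 2.59% of all genes. Of the 119 genes, 67 lay above 0, where 50.6% of all tested genes did. Every high library lay above every low one in 27 (22.7%, against 9.51%) and below every low one in 6 (5.04%, against 10.8%). The median log2 fold changes were 0.06 for origin licensing and firing, -0.05 for polymerases and strand joining, 0.39 for chromatin copying, 0.41 for G1 kinases and E2F factors, 0.05 for G2 control, 0.06 for spindle and kinetochore, and 0.30 for condensation, cohesion and cell division.

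Within these groups Clspn, the claspin adaptor of the replication checkpoint, was at 21.9, 31.9 and 34.2 CPM in low and 64.2, 48.8 and 60.2 CPM in high (0.98 ± 0.25, adjusted p = 0.212 by edgeR). Cdc25a, the phosphatase that activates Cdk2 at the entry to S phase, was at 65.4, 71.9 and 55.5 CPM in low and 31.8, 39.1 and 21.4 CPM in high (-1.06 ± 0.27, adjusted p = 0.211). Tfdp1, a partner of E2F factors in binding DNA, was at 338, 273 and 242 CPM in low and 128, 198 and 154 CPM in high (-0.83 ± 0.23, adjusted p = 0.274). In these 3 genes the fractions do not overlap, and Cdc25a and Tfdp1 stand lower where Clspn stands higher. The polymerase subunits Pola1 and Pole were at 0.80 and 1.16, the replication factor Mcm10 at 0.45, and the chromatin factors Atad2 and Chaf1a at 1.14 and 0.57 on the log2 fold change scale. Lin54, which binds the CHR element as part of MuvB, was at 0.83, the Cdk1-inhibiting kinase Pkmyt1 at 0.58, the kinesin Kif15 at 0.70 and the kinetochore protein Spc25 at -0.55. Citron kinase Cit was at 0.67 and the condensin subunit Ncapg at 0.55. The group of condensation, cohesion and cell division genes summed to 2067 to 2289 CPM in low and 2460 to 2708 CPM in high. In it 13 of 16 genes lay above 0, where 50.6% of all tested genes did, and 0 were called. This group was picked out after the sums were seen. The sums of the other 6 groups overlapped between fractions, with ratios of high to low means of 0.876 (spindle and kinetochore), 0.951 (polymerases), 0.953 (chromatin copying), 0.96 (G1 kinases and E2F factors), 1.01 (origin licensing and firing) and 1.02 (G2 control).

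Open chromatin was compared through the authors' deposited table, which lists 40796 regions with the log2 fold and FDR of each, and no value per library. The direction, high against low, rests on the name of the comparison. The authors' deposited table assigned 81 regions to 45 of the 49 genes, 21 in S phase, 28 in mitosis and 32 in G1. Mcm4, Aurka, Kif20a and Cdkn1a had no region in it. Of the 81 regions, 48 lay within 1 kb of a start, of 44 genes. Of these 81 regions, 1 passed an FDR of 0.05 in the authors' deposited table, on the lower side, where 7.55% of all regions passed (4.99% lower and 2.56% higher). Among the 48 promoter regions 0 passed, against 5.24% of all regions within 1 kb of a start.

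Promoter folds of the members lay on both sides of 0. In the authors' deposited table the median log2 fold of the promoter regions was -0.02 in S phase (8 above and 9 below 0), -0.04 in mitosis (9 above and 12 below) and -0.01 in G1 (4 above and 6 below), against -0.05 over all promoter regions. The 48 values ran from -0.34 to 0.33. The lowest FDRs in S phase in the authors' deposited table were those of the promoters of Mcm2 (-0.34, FDR 0.0722), Uhrf1 (-0.25, FDR 0.136) and Pcna (0.20, FDR 0.148). In mitosis the authors' deposited table had Nusap1 (0.27, FDR 0.0789), Aurkb (0.33, FDR 0.116) and Kif11 (-0.24, FDR 0.148) lowest. The Mcm2 promoter region spans 88898507 to 88898906 on chromosome 6. The genes with the largest RNA values had promoter folds near 0 in the authors' deposited table, 0.15 for Top2a and 0.04 for Mki67, and Kif11 was below 0 there while its RNA value was above 0. The printed bases of Mki67, Top2a, Kif11 and Cdc20 lie within their promoter regions of the authors' deposited table, while those of Uhrf1 overlap none and its fold above belongs to its other start. Promoter windows of 35 members overlap a member region there.

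The direction of the deposited fold could not be checked here, and the shares that follow turn with it. The sign of the RNA change matched the sign of the promoter fold of the authors' deposited table in 21 of 44 members (47.7%) and in 4933 of 10372 genes tested (47.6%). Among the 70 genes called in RNA with a promoter region it matched in 27 (38.6%). With the direction of the fold turned these become 23 of 44, 5439 of 10372 and 43 of 70. The granule markers, lower in RNA in Nrp1 high, had 6 of 9 promoter regions above 0 in the authors' deposited table, with a median of 0.26.

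**Figure D5:**
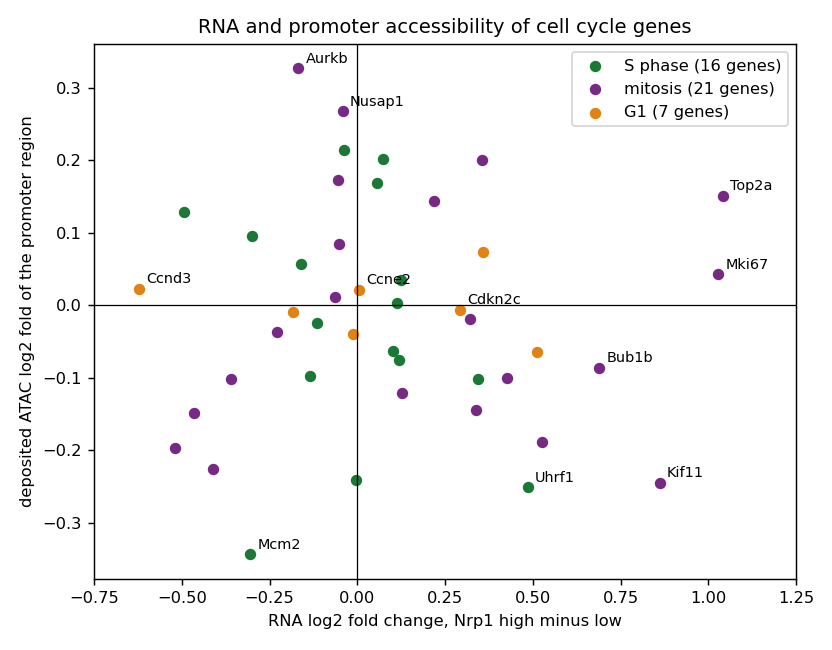
Deposited ATAC log2 fold of the promoter region nearest the start (y axis) against RNA log2 fold change, Nrp1 high minus Nrp1 low (x axis), for the 44 members with a region within 1 kb (each point is 1 gene, coloured by role). The points fall in all 4 quadrants, with the same sign in 21 of 44, and the promoter folds run from -0.34 (Mcm2) to 0.33 (Aurkb).

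The 1 member region past the threshold belonged to Ccnd1, cyclin D1. In the authors' deposited table it spans 144981662 to 144982061 on chromosome 7, is annotated as distal intergenic, 41737 bases from the Ccnd1 start, and has a log2 fold of -0.92 with an FDR of 0.00913. Of all distal intergenic regions of the authors' deposited table, 5.77% were lower at that threshold. Ccnd1 had 11 of the 81 regions, more than any other member. The next 3 of its regions by FDR in the authors' deposited table also had negative folds: 145030635 to 145031034 (-0.40, FDR 0.074), 144970966 to 144971365 (-0.64, FDR 0.122) and 144991758 to 144992157 (-0.82, FDR 0.127). Its promoter region within 1 kb of a start stood at -0.06 in the authors' deposited table, and the one at 1 to 2 kb at -0.44 (FDR 0.167). The RNA of Ccnd1 was at 1.94 to 6.25 CPM with overlapping fractions, and these regions are tied to Ccnd1 only by the assignment in the authors' deposited table. For Ccnd3 the authors' deposited table had promoter regions within 1 kb at 0.02 and 0.25 (FDR 0.931 and 0.205). The Ccnd3 promoter region at 2 to 3 kb stood at -0.26 (FDR 0.308) in the authors' deposited table. For the E2f1 region 4447 bases from its start the authors' deposited table had a log2 fold of 0.48 (FDR 0.14).

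Of 182 regions of the other cell cycle genes, the authors' deposited table had 8 past an FDR of 0.05 (4.40%, against 7.55% of all regions), 6 of them lower (3.30%, against 4.99%). Cdk6, the kinase partner of the D-type cyclins, had 2 intronic regions at -1.22 and -0.54 (FDR 0.0045 and 0.00153) in the authors' deposited table, beside an RNA log2 fold change of -0.68. E2f3 had a promoter region at 0.36 (FDR 0.00819) and an intronic one at -0.62 (FDR 0.0414) in the authors' deposited table, beside an RNA log2 fold change of 0.88. The condensin gene Ncaph had a promoter region at 0.37 (FDR 0.0369) there, with an RNA log2 fold change of 0.20. The other 3 regions in the authors' deposited table, of Gins1 (-0.42), Ccnf (-1.27) and Kpna2 (-0.61), stood beside RNA log2 fold changes of 0.32, -0.01 and -0.67.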

How the data were processed

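RNA-seq and ATAC-seq libraries of sorted splenic monocytes were compared by Nrp1 fraction, taken from the sample titles. The RNA kit was a low-input one based on template switching, per the labels' protocols. The deposited RNA values are estimated counts per gene on GRCm38. HISAT2, StringTie, Trimmomatic, BWA, Picard, MACS2, DiffBind, ChIPseeker, edgeR and DESeq2 are named without version or role, per the submitters' processing notes. Counts were whole numbers, so rounding changed nothing. The strand and the read length assumed in deriving them, both not given in the sources used here, leave overlapping genes and the scale of a count uncertain. In ATAC-seq the authors deposited a log2 fold, a p-value, an FDR and a distance to the nearest start for each region. The libraries that entered and any shift of reads for the transposase were not given in the sources used here, and the depth is unknown.

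Genes kept by filterByExpr (15541) were tested after TMM scaling with the robust quasi-likelihood F test of edgeR 4.0.16 in R 4.3.3, with group as its term. P-values were adjusted over all genes by Benjamini-Hochberg and called under 0.05. They rest on the spread between libraries of a fraction, possibly technical. The fit was tested on simulated data. Values in every library are given for called members and, in each role, for the 5 of lowest p and 3 of highest mean CPM. Of the 2 genes of lowest p in each group of other cell cycle genes, 3 are given by library and the rest by their fold change. Ccnb2, Cdc20 and Bub1 were chosen after their values were seen. For ATAC the members' regions past FDR 0.05 and the 3 of lowest FDR per role are named; the others were chosen after their values were seen. The members and lists were chosen with earlier results of these data known. Alternatives used upper-quartile or RLE factors, library totals, no filter, DESeq2 1.42.0, limma-voom (limma 3.58.1), a replicate block, each library left out, and other thresholds and distances. Coordinates and promoter sequences are from RefSeq on GRCm38.p6, and region coordinates are as deposited, from 1. Figures were drawn with matplotlib 3.10.9.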

Additional observations from a re-analysis of the deposited data

How the results depend on the processing

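The call of 0 members and 0 other cell cycle genes by edgeR held under RLE and upper-quartile factors, library totals, no filter on low counts, limma-voom, each library left out and an adjusted p of 0.1. Without high 3 edgeR called 0 genes of the whole table, and without high 1 or low 3 it called 28 and 29, so that the counts of 0 there say nothing about stability. DESeq2 called 2 members and 2 other genes. Scaling by library totals shifted the median of all genes by 0.189 (log2), and the medians became 0.200 in S phase and 0.150 in mitosis, with 39 members above 0. Under library totals Mcm5 changed sign, to 0.057. Leaving out 1 library in turn gave a mitosis median between -0.087 and 0.093, an S phase median between -0.098 and 0.053, a G1 median between -0.157 and 0.245, and a Pcna value between -0.025 and 0.171. The number of members higher at an unadjusted p under 0.05 lay between 2 and 10 over the settings, and that of lower members between 0 and 5. Of 247 alternative values for the 19 members described by the rule, 243 kept direction and side of the threshold. Over all 49 members, 34 kept their sign under library totals, 37 without low 1 and 45 to 48 under the other settings. At other limits the ATAC count of 1 region became 4 (FDR under 0.1), 0 (within 1 kb of a start) and 0 (within 3 kb).

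With the replicate number as a block, 0 members and 0 genes overall were called. The medians under the block were 0.005 in S phase, -0.040 in mitosis and 0.007 in G1. Same-numbered libraries did not deviate together (correlations of -0.237, -0.240 and 0.021), so the numbers were not taken to pair the libraries. No paired analysis was possible for ATAC because the deposited table holds no value per library. With 3 libraries a fraction, a p that misses the threshold does not show equal levels.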
